A study of Mus musculus with 8 samples.

Results

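The cornified envelope of the epidermis is described here through 10 genes, Flg, Rptn, Lor, Ivl, Evpl, Ppl, Tgm1, Tgm3, Tgm5 and Casp14, in developing mouse dorsal skin. They were taken as all probesets annotated to exactly one of these symbols, which gave 17 probesets of 34945 tested, for 10 of 18193 genes. Whole dorsal skin of wild-type embryos was hybridised to Affymetrix 430 2.0 arrays at embryonic day 14.5 (E14.5, 2 arrays), E16.5 (3 arrays) and E18.5 (3 arrays), to follow expression while the epidermis differentiates. The labels give no strain or treatment, and they do not say whether the arrays of a stage came from separate embryos, so p-values cover only the spread seen among these arrays.

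Keratinocytes end their differentiation by replacing the plasma membrane with a crosslinked protein shell, the cornified envelope. Envoplakin and periplakin (Evpl, Ppl) and involucrin (Ivl) form its first scaffold beneath the membrane, and loricrin (Lor) becomes its main component. Transglutaminases (Tgm1, Tgm3, Tgm5) join these proteins by isopeptide bonds. Filaggrin (Flg) bundles keratin filaments and is later broken down to free amino acids that hold water, and Casp14 encodes a protease of cornifying cells that takes part in that breakdown. Repetin (Rptn) is a fused S100 protein related to filaggrin.

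Flg, Rptn, Lor and Ivl lie on chromosome 3, in the epidermal differentiation complex. Tgm3 and Tgm5 lie on chromosome 2, and Casp14, Evpl, Tgm1 and Ppl on chromosomes 10, 11, 14 and 16. Promoter windows of RefSeq (GRCm38.p6), 250 bases before to 50 bases after a gene's start, were found for 8 of the 10 genes, in 9 windows of which Tgm1 had 2. Those of Flg, Lor and Ivl, all in the epidermal differentiation complex, are printed below. They were chosen because at E18.5 against E16.5 Flg rose, Ivl fell and Lor had no called probeset. Capitals mark 2 motifs, searched on both strands. One is the TATA box, spelled TATAAA. The other is the letters TGACTCA of the AP-1 factors, which read TGAGTCA where the match is on the opposite strand. The Flg window is chr3:93273296-93273595 on the plus strand, that of Lor chr3:92083093-92083392 and that of Ivl chr3:92573686-92573985, both on the minus strand, and each sequence runs 5′ to 3′ in the direction of transcription.
Flg: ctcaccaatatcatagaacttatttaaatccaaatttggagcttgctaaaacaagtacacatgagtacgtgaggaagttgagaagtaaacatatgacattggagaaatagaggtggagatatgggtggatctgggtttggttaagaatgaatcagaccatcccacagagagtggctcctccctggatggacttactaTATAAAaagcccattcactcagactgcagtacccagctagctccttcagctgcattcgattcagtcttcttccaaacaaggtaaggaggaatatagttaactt
Lor: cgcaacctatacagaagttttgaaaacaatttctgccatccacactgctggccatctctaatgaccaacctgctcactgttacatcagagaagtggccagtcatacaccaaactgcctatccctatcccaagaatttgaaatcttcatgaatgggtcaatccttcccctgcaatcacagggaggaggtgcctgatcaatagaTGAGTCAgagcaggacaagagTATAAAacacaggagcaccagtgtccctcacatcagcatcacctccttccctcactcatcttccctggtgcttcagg
Ivl: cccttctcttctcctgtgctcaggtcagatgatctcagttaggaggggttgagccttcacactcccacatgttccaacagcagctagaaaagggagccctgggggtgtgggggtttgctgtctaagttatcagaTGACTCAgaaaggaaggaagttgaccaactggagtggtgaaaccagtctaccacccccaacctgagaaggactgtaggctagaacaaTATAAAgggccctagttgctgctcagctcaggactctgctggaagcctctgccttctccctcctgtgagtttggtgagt
The TATAAA of Flg began 53 bases before the start, that of Lor 27 bases and that of Ivl 29 bases before it. The AP-1 letters began 48 bases before the start of Lor, on the opposite strand, and 116 bases before that of Ivl. TATAAA was found in 5 of the 9 windows (Flg, Rptn, Lor, Ivl and Tgm3), against 13.616% of 32851 RefSeq windows, and the AP-1 letters in 2 of 9, against 5.202%. The Grainyhead palindrome AACCGGTT was in 0 of the 9 windows, against 0.146% of all. These matches are descriptions of letters and not evidence of binding.

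Signals are the deposited linear intensities, and changes are differences of log2(signal + 16), later minus earlier stage, from limma fitted to all 8 arrays. A probeset was called where its p, adjusted by Benjamini-Hochberg over the 34945 probesets, lay under 0.05. Arrays of 1 stage correlated across these probesets with r of 0.955 to 0.986, and E16.5 with E18.5 arrays with r of 0.938 to 0.958. The E14.5 arrays stood apart, with r of 0.758 to 0.788 to the others. For beta-actin, 3′ probes outshone 5′ probes 6.49 and 6.91 times on E14.5 arrays, 1.11 to 1.14 times on E16.5 arrays and 1.35 to 1.37 times on E18.5 arrays. The median signal was 60.8 and 63.4 on E14.5 arrays, 120.1 to 128.9 on E16.5 arrays and 137.5 to 152.6 on E18.5 arrays. In differences from E14.5, stage and array preparation cannot be told apart, so the later interval opens the results. Background, the 95th percentile of 80 olfactory and vomeronasal receptor probesets, was 33.6 to 92.2 per array. In whole skin, fewer cells of a type and less RNA per cell cannot be told apart. The labelled tissue was checked by 7 epidermal keratins. Krt5 and Krt14 of the basal layer, Krt1 and Krt10 of the suprabasal layers, Krt15 and Krt77 lay above background on all 8 arrays. Krt2 lay above it on 1 E16.5 array only. Its signals were 46.7 to 50.1 at E18.5, against 20.2 to 39.0 at E16.5. Background was also higher at E18.5 (62.2 to 92.2) than at E16.5 (33.6 to 53.2), so this count sets no direction for Krt2.

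At E18.5 against E16.5, Flg and Tgm5 rose, whereas Ivl, Evpl, Ppl, Tgm1 and 1 of the 2 Tgm3 probesets fell. Lor, Casp14 and Rptn had no called probeset. In all 8 of the 17 probesets were called, 2 rising and 6 falling, against 10.7% of all tested probesets called, 6.27% rising and 4.44% falling. The median change of the 17 was −0.32, against 0.12 over all tested probesets. The later stage was higher on every array for 5 probesets and lower on every array for 7, against 23.2% and 13.6% of all. Taking 1 probeset a gene, that with the highest mean, 7 of 10 genes were called, 2 rising and 5 falling, against 12.1% of 18193 genes, 6.9% rising and 5.23% falling.

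**Figure D1:**
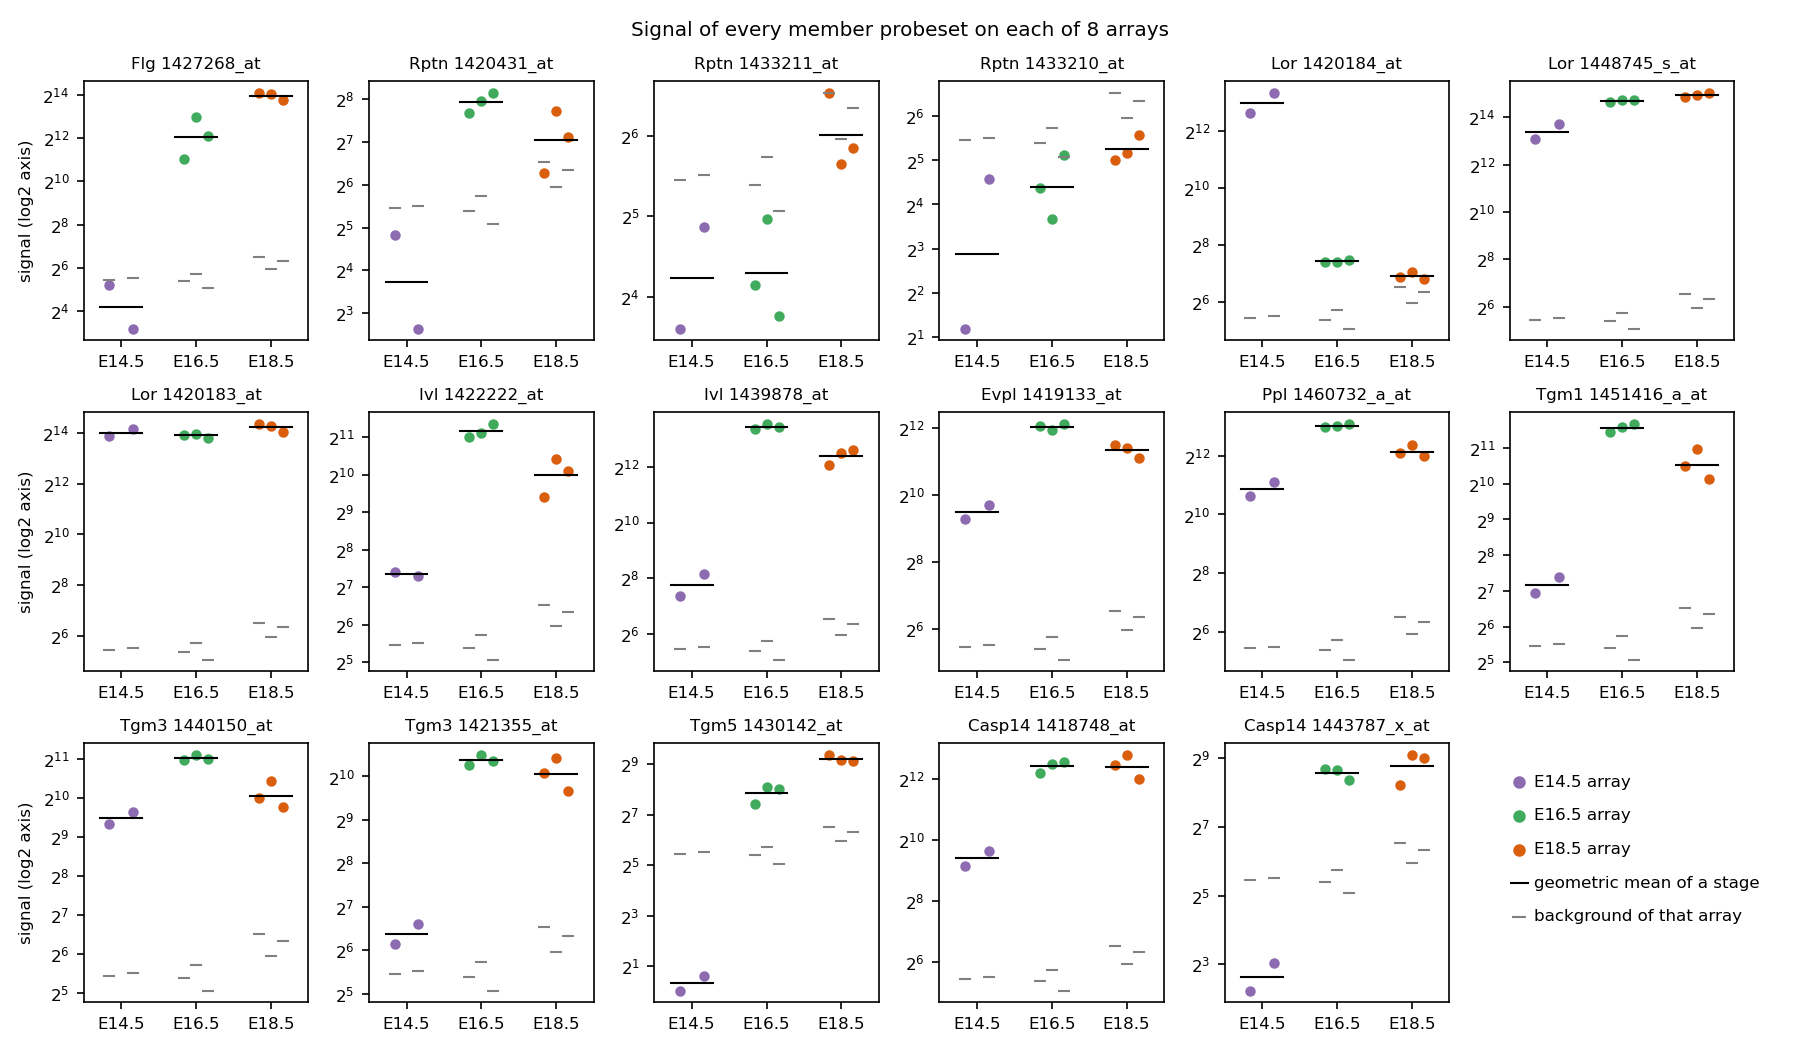
Signal of each of the 17 probesets (vertical, log2 axis; arbitrary intensity units) on every array by stage, with the geometric mean of each stage as a black bar and the background of each array as a grey dash. Most probesets are higher at both later stages than at E14.5, Flg and Tgm5 are highest at E18.5, and Lor 1420184_at runs the opposite way to Lor 1448745_s_at.

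Filaggrin had the largest rise among them. Flg (1427268_at) gave signals of 17103, 16823 and 13601 on the E18.5 arrays, against 2101, 7961 and 4323 on the E16.5 arrays. All E18.5 arrays lay above all E16.5 arrays, and the E16.5 arrays were the more scattered. The log2 change was 1.91 ± 0.41 (SE, n = 3 each; 95% interval 1.00 to 2.83; limma adjusted p = 0.0165), a 3.77-fold difference on that scale. The call was lost without E16.5 replicate 3, without E18.5 replicate 1, without E18.5 replicate 2 and with no variance trend (limma adjusted p up to 0.0616), while the log2 change stayed between 1.42 and 2.38 with any 1 array left out.

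Repetin was dim and its probesets disagreed. Rptn 1420431_at gave 78.1, 211.0 and 140.1 at E18.5, against 205.6, 251.0 and 282.8 at E16.5, with overlapping stages and 1 E18.5 array at or below background. Its log2 change was −0.80 ± 0.37 (SE; 95% interval −1.63 to 0.03; limma adjusted p = 0.196, n = 3 each). The other Rptn probesets, 1433210_at and 1433211_at, reached at most 92.3 on any array. Rptn 1433211_at had a log2 change of 1.16 ± 0.34 (limma adjusted p = 0.0543), and it was called with a pseudocount of 64, with only the stages compared, and without either E14.5 array (limma adjusted p down to 0.0407). Rptn 1433210_at had 0.52 (limma adjusted p = 0.388). These low signals set no direction for Rptn between the stages.

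Loricrin was among the brightest genes on the later arrays by its probeset 1448745_s_at, the only one of its 3 that the annotation pairs with an accession. It gave 29996, 31695 and 33030 at E18.5, against 25386, 26944 and 26907 at E16.5. Although the stages did not overlap, the log2 change was 0.26 ± 0.14 (SE, n = 3 each; 95% interval −0.06 to 0.58; limma adjusted p = 0.281). The probeset ranked 14 to 42 among all 45101 probesets on the E18.5 arrays and 2 to 3 on the E16.5 arrays. The highest signals were 27950 to 30874 on the E16.5 arrays and 38570 to 39825 on the E18.5 arrays. Whether a difference shows in full at such signals was not tested. Lor 1420183_at gave 20750, 19980 and 16755 at E18.5, against 15679, 16080 and 14443 at E16.5 (log2 0.31 ± 0.12, limma adjusted p = 0.121), and it was called without E18.5 replicate 3 (limma adjusted p = 0.0472). Lor 1420184_at was far dimmer, at 117.6, 133.4 and 113.4 at E18.5, against 167.6, 171.2 and 176.5 at E16.5. Its log2 change was −0.45 ± 0.19 (limma adjusted p = 0.162), and it was called with each array centred on Krt5 and Krt14 (limma adjusted p = 0.0455).

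**Figure D2:**
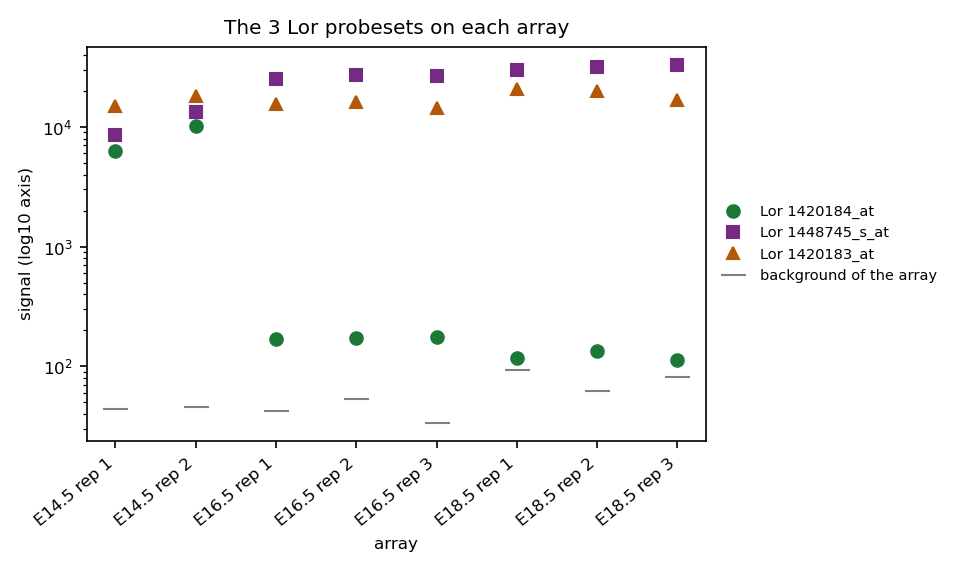
Signal (log10 axis) of the 3 Lor probesets on each of the 8 arrays, with array background as a dash. Lor 1420184_at lies between 113.4 and 176.5 on the later arrays, against 6307 and 10194 at E14.5, while Lor 1448745_s_at is at 25386 or above on every later array and 1420183_at stays between 14443 and 20750 on all 8.

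Involucrin fell on both of its probesets. Ivl 1439878_at gave 4337, 5922 and 6299 at E18.5, against 10647, 12037 and 11332 at E16.5, and the stages were far apart. The log2 change was −1.05 ± 0.19 (SE, n = 3 each; limma adjusted p = 0.00848). Ivl 1422222_at gave 684.0, 1375 and 1105 at E18.5, against 2059, 2238 and 2612 at E16.5, again without overlap. Its log2 change was −1.16 ± 0.23 (limma adjusted p = 0.0105), and without E16.5 replicate 3 it was not called (limma adjusted p = 0.0595). The changes of the 2 Ivl probesets differed by −0.11 ± 0.19.

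Both plakins, which link the envelope to keratin filaments and desmosomes, fell. Ppl (1460732_a_at) gave 4313, 5261 and 4007 at E18.5, against 7966, 8248 and 8554 at E16.5. The log2 change was −0.87 ± 0.15 (SE, n = 3 each; limma adjusted p = 0.00551), and no alternative that kept the call rule ended the call. Evpl (1419133_at) gave 2855, 2697 and 2223 at E18.5, against 4249, 3976 and 4434 at E16.5, with a log2 change of −0.71 ± 0.14 (limma adjusted p = 0.0127). The Evpl call was lost without E16.5 replicate 1, without E16.5 replicate 3 and with no variance trend (limma adjusted p up to 0.0681). In both genes every E18.5 array lay below every E16.5 array.

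The crosslinking enzymes went different ways. Tgm5 (1430142_at) gave 657.1, 583.1 and 557.2 at E18.5, against 174.7, 273.9 and 258.5 at E16.5. It rose by a log2 change of 1.31 ± 0.24 (SE, n = 3 each; 95% interval 0.79 to 1.83; limma adjusted p = 0.00747), without overlap. Tgm1 (1451416_a_at), the membrane-anchored enzyme whose loss in humans causes lamellar ichthyosis, gave 1460, 1995 and 1131 at E18.5, against 2773, 3087 and 3254 at E16.5. It fell by 1.02 ± 0.20 on the log2 scale (limma adjusted p = 0.0111), and without E16.5 replicate 3 it was not called (limma adjusted p = 0.0602). Tgm3, a zymogen activated by proteolysis and found in epidermis and hair follicle, had probesets that moved by unequal amounts. Tgm3 1440150_at gave 1025, 1380 and 867.1 at E18.5, against 1994, 2186 and 2053 at E16.5 (log2 −0.94 ± 0.17, limma adjusted p = 0.00799). Tgm3 1421355_at gave 1079, 1372 and 807.6 at E18.5, against 1233, 1436 and 1315 at E16.5, and the stages overlapped (log2 −0.32 ± 0.20, 95% interval −0.76 to 0.13, limma adjusted p = 0.342). Only the first of these, 1440150_at, passed the test, and the annotation gives it no accession.

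Casp14 had no called change. Casp14 1418748_at gave 5639, 7076 and 4098 at E18.5, against 4712, 5856 and 6024 at E16.5, and the stages overlapped fully. The log2 change was −0.01 ± 0.20 (SE, n = 3 each; limma adjusted p = 0.985), with a 95% interval of −0.46 to 0.44, which allows moderate changes either way. Casp14 1443787_x_at gave 298.6, 544.4 and 520.1 at E18.5, against 412.7, 403.2 and 329.6 at E16.5 (log2 0.20 ± 0.26, limma adjusted p = 0.657). The suffix _x_at marks probes that may bind related transcripts.

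The unequal changes were also set against each other directly, in 12 pairs of probesets, by an exact two-sided permutation test of the per-array log2 difference over the 6 later arrays. With 3 arrays against 3 this exact permutation test cannot go below p = 0.1, or 0.15 after Benjamini-Hochberg adjustment over the 12 pairs. The change of Flg exceeded that of Ivl 1439878_at by 2.97 ± 0.56 on the log2 scale (SE; exact permutation p = 0.1). Tgm5 exceeded Tgm1 by 2.33 ± 0.27 and Tgm3 1440150_at by 2.25 ± 0.25 (exact permutation p = 0.1 for each). Between the Tgm3 probesets the difference was 0.63 ± 0.06, and Lor 1420183_at exceeded Lor 1420184_at by 0.76 ± 0.10 (exact permutation p = 0.1 for each). The change of Rptn 1420431_at lay below those of Rptn 1433210_at (by −1.32 ± 0.40) and Rptn 1433211_at (−1.96 ± 0.63), and that of Lor 1420184_at below Lor 1448745_s_at (−0.71 ± 0.08), again at exact permutation p = 0.1. In these 8 pairs the per-array differences did not overlap between stages, which is the most this permutation test can show. For Flg with Ivl, Tgm5 with Tgm1 and with Tgm3, and the Lor pairs with 1420184_at, this outcome was fixed beforehand. In each of those pairs 1 probeset was higher and the other lower on every E18.5 array, so the permutation test adds nothing there. In the other 4 pairs, both Ivl, both Casp14, 2 Rptn and 2 Lor probesets, they overlapped (exact permutation p = 0.4 to 0.8).

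**Figure D3:**
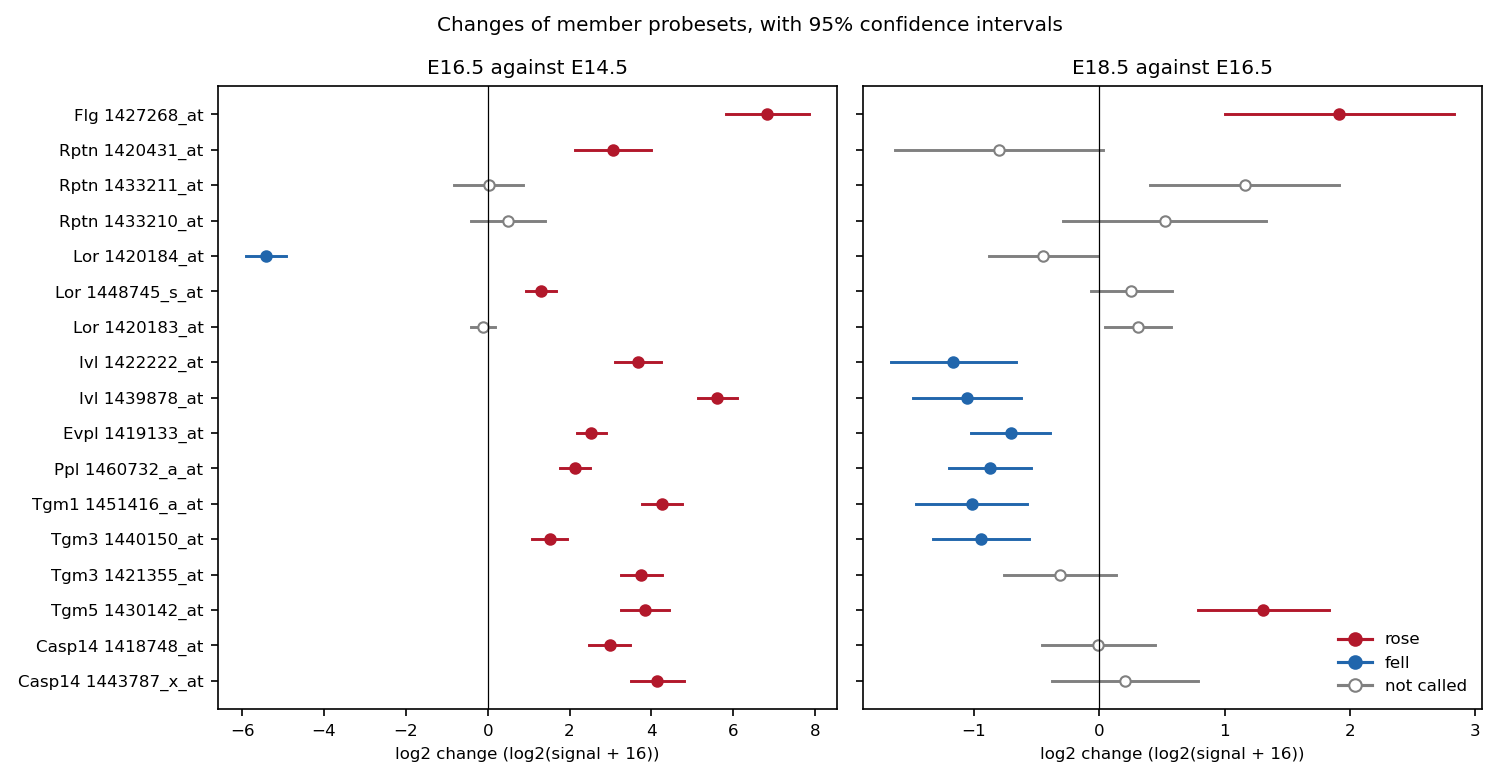
Log2 change of every probeset (points) with its 95% interval (lines) from limma, at E16.5 against E14.5 on the left and E18.5 against E16.5 on the right, coloured by call. In the later interval Flg (1.91) and Tgm5 (1.31) stand to the right of 0 while Ivl, Evpl, Ppl, Tgm1 and Tgm3 1440150_at lie to the left.

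**Figure D4:**
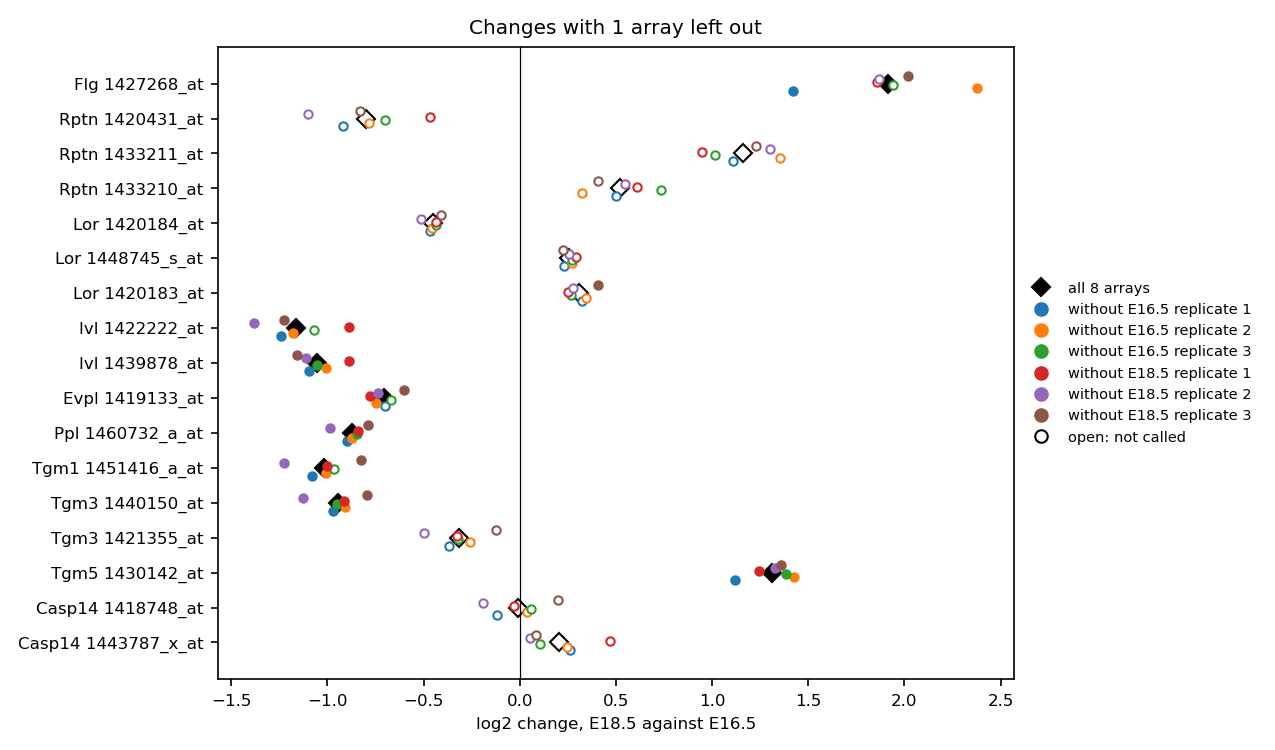
Log2 change at E18.5 against E16.5 for each probeset with all 8 arrays (diamonds) and with each later array left out (circles), filled where called. The change of Flg runs from 1.42 to 2.38, and the falls of Ivl, Evpl, Ppl, Tgm1 and Tgm3 1440150_at stay below 0 in each of these fits.

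Genes that work with these proteins were counted with 1 probeset a gene. Of 15 genes of filaggrin processing and breakdown, 2 rose and 2 fell at E18.5 against E16.5, and 11 were not called. The median log2 change of these 15 was 0.00. Over all genes 6.9% rose and 5.23% fell, with a median of 0.12. The counts and medians of all further lists in this interval are to be read beside these values too. Padi3 (1.92 ± 0.38 SE, limma adjusted p = 0.0117) and Padi1 (1.84 ± 0.40, limma adjusted p = 0.0177), which turn arginine of filaggrin and trichohyalin into citrulline, rose, and Padi1 was above background on 2 of 3 E16.5 arrays. Pcsk6, a proprotein convertase (−1.17 ± 0.20), and Capn1, calpain 1 (−1.12 ± 0.14), fell. Asprv1, the protease that cuts the linkers of profilaggrin, averaged 18206 at E18.5, against 18050 at E16.5 (log2 0.00 ± 0.16, limma adjusted p = 0.988). Blmh, bleomycin hydrolase, which completes the breakdown, averaged 15238 at E18.5, against 15175 at E16.5 (log2 0.00 ± 0.11, limma adjusted p = 0.982). Asprv1 and Blmh, like the further genes given with uncalled changes, were chosen after their values were seen.

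Among 14 measured other scaffold and inhibitor genes of the envelope, 0 rose and 4 fell by limma at this threshold, with a median of 0.01. Cnfn, which encodes cornifelin, fell by 1.44 ± 0.24 and Scel, which encodes sciellin, by 0.80 ± 0.18 on the log2 scale. Jup, plakoglobin, and Cstb, cystatin B, were the other falls. Of 11 regulators of late differentiation 2 rose and 4 fell (median −0.47). Grhl3, a Grainyhead factor needed for barrier formation, had a log2 change of −1.80 ± 0.22 (limma adjusted p = 0.00127), and Vdr, the vitamin D receptor, 1.78 ± 0.34 (limma adjusted p = 0.0103). Ovol1, Cebpa and Notch3 also fell, and Trp63 rose.

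Of 3 measured fused S100 genes, Tchh, trichohyalin of the inner root sheath, rose (4.76 ± 0.45, limma adjusted p = 0.00041), with 2 of 3 E16.5 arrays above background, while Hrnr, hornerin, averaged 13485 at E18.5, against 15245 at E16.5 (log2 −0.20 ± 0.30, limma adjusted p = 0.695). Of 4 other transglutaminases measured, Tgm6 was called as higher, with 1 of 3 E18.5 arrays above background, so no fold is given. Of 4 corneodesmosome genes, Dsg1b rose (0.99 ± 0.20), and it shares sequence with Dsg1a. Of 7 epidermal keratins 0 rose and 1 fell by limma. Krt77 had a log2 change of −5.27 ± 0.23, and Krt5 (0.24 ± 0.12), Krt14 (0.26 ± 0.11), Krt1 (0.54 ± 0.16) and Krt10 (0.40 ± 0.12) were not called (limma adjusted p = 0.249, 0.17, 0.0516 and 0.0581).

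Markers of other cell types moved over the same interval, and their part in the changes above was not tested. The summed signal of 9 inner root sheath and medulla genes was 37452, 17740 and 8271 on E18.5 replicates 1 to 3, against 1572 to 1924 at E16.5, and 7 of the 9 rose. Krt25, Krt26, Krt27 and Krt28 were at or below background on all E16.5 arrays. Krt71, Krt72 and Krt73 were above it on 1, 3 and 2 of 3 E16.5 arrays. Hair shaft genes summed to 1514 to 5736 at E18.5, against 447.3 to 518.5 at E16.5, with 6 of 9 rising. Periderm and simple epithelium genes summed to 5163 to 9124 at E18.5, against 4218 to 6075 at E16.5, with 5 of 8 falling and 1, Krt17, rising. Krt17 alone gave 7405, 4825 and 4364 at E18.5, against 1697, 2107 and 1865 at E16.5. It made up most of each E18.5 sum, so the higher sum does not describe the other genes of this list. Fibroblast genes summed to 134750 to 163860 at E18.5, against 117670 to 124220 at E16.5 (2 of 8 rose), and adipocyte genes to 28624 to 36122 at E18.5, against 7292 to 9407 at E16.5 (5 of 5 rose). Melanocyte genes summed to 7671 to 12808 at E18.5, against 3299 to 4664 at E16.5 (4 of 6 rose), and red blood cell genes to 1635 to 2585 at E18.5, against 4864 to 9198 at E16.5 (3 of 5 fell). Skeletal muscle genes summed to 67192 to 104540 at E18.5, against 53308 to 59732 at E16.5 (1 of 7 rose and 1 fell), macrophage and dendritic cell genes to 6110 to 9543 at E18.5, against 4877 to 5359 at E16.5 (2 of 6 rose and 1 fell), and endothelial genes to 3926 to 4057 at E18.5, against 4511 to 5315 at E16.5 (1 of 5 fell).

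At E16.5 against E14.5, all 10 genes had a probeset that rose, in an interval whose arrays also differ in the actin ratios and median signals given above. Of 17 probesets 14 were called, 13 rising and 1 falling, against 57.6% of all tested probesets called, 38.9% rising and 18.7% falling. The later stage was higher on every array for 13 probesets and lower for 1, against 47.9% and 25.8% of all. The median change was 2.98, against 0.38 over all tested probesets. Centring each array on its median took 0.95 from every change in this interval, 1.07 from those of E18.5 against E14.5 and 0.12 from those of E18.5 against E16.5. With that centring 12 member probesets rose and 2 fell here, against 20.6% of all tested probesets rising and 41.6% falling. With each array centred on Krt5 and Krt14, 11 rose and 4 fell, against 11.9% and 58.4% of all. Taking 1 probeset a gene, 10 of 10 rose, against 58.6% of all genes called, 37.3% rising and 21.3% falling. Lor entered this count by 1448745_s_at, whose rise its other probesets did not share.

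Flg was at or below background on both E14.5 arrays, at 37.5 and 9.16, and rose at least 93.0-fold at E16.5 (log2 change of measured signals 6.83 ± 0.46 SE, n = 3 and 2, limma adjusted p = 4.69e-07). A fitted log2 change from such signals depends on the pseudocount of 16, so the bound is taken against background. Tgm5, at 1.03 and 1.52 at E14.5, was at least 5.16-fold higher at E16.5. Casp14 1443787_x_at, at 4.70 and 8.15 at E14.5, was at least 8.48-fold higher, and Rptn 1420431_at, at 28.4 and 6.20 at E14.5, at least 5.45-fold higher at E16.5. The other probesets that rose lay above background on both E14.5 arrays.

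Ivl 1439878_at averaged 11338 ± 695.0 at E16.5 (SD, n = 3), against 163.7 and 283.6 on the E14.5 arrays, a log2 change of 5.61 ± 0.22 (SE, limma adjusted p = 2.62e-08). Ivl 1422222_at had 171.0 and 157.8 at E14.5 and a log2 change of 3.68 ± 0.25. Tgm1 had 123.6 and 166.1 at E14.5 (log2 change 4.26 ± 0.22), and Tgm3 1421355_at 70.9 and 97.2 (log2 change 3.76 ± 0.23). Evpl had 617.4 and 827.3 at E14.5 (log2 change 2.53 ± 0.16), Ppl 1577 and 2225 (2.13 ± 0.16) and Casp14 1418748_at 574.2 and 807.5 (2.98 ± 0.23). Tgm3 1440150_at had 641.7 and 796.9 at E14.5 and a log2 change of 1.52 ± 0.19, which was −0.034 with each array centred on Krt5 and Krt14. In each of these probesets the lowest E16.5 array lay above the highest E14.5 array. The plakins and the brighter Casp14 probeset were already far above background at E14.5.

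The 3 Lor probesets gave 3 answers in this interval. Lor 1448745_s_at gave 25386, 26944 and 26907 at E16.5, against 8581 and 13341 at E14.5, and rose (log2 1.30 ± 0.16, limma adjusted p = 4.06e-05), although the call was lost with median centring (0.35, limma adjusted p = 0.111) and the change was −0.25 when centred on Krt5 and Krt14. Lor 1420184_at fell to 167.6, 171.2 and 176.5 at E16.5, against 6307 and 10194 at E14.5 (log2 −5.42 ± 0.22, limma adjusted p = 3.01e-08). Lor 1420183_at gave 15679, 16080 and 14443 at E16.5, against 14977 and 18300 at E14.5, and the stages overlapped (log2 −0.11 ± 0.13, limma adjusted p = 0.529), and it was called as lower at E16.5 with median centring (−1.06). Loricrin is a late differentiation product, and a direction for Lor relative to E14.5 cannot be set from probesets that oppose each other. Whether 1420183_at and 1420184_at, which the annotation pairs with no accession, measure Lor was not tested.

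In the same interval, 12 of 15 genes of filaggrin processing and breakdown rose and 1, Furin, fell, with a median log2 change of 2.56. Over all genes 37.3% rose and 21.3% fell, with a median of 0.30, and the counts of the lists that follow are to be read beside these shares too. Hal, histidase, which turns histidine from filaggrin into urocanic acid, had a change of 5.60 ± 0.47, with 1 of 2 E14.5 arrays above background, and the protease gene Klk5 5.28 ± 0.27. Of 14 other scaffold and inhibitor genes 9 rose, among them Cst6, cystatin M/E, an inhibitor of the cathepsin that acts on transglutaminase 3 (4.17 ± 0.29), and Cnfn (3.75 ± 0.27), and 1, Dsp, fell. Of 4 corneodesmosome genes, Cdsn, corneodesmosin (at least 122-fold higher at E16.5, since both E14.5 arrays were at or below background), and Dsc1 rose and Dsg1b (−2.93 ± 0.23) fell. Of 11 regulators 7 rose, with Cebpb (4.78 ± 0.14) and Hopx (3.74 ± 0.29) changing most. The fused S100 genes differed, with Hrnr rising (1.94 ± 0.33) and Tchh falling (−4.08 ± 0.50), and of 4 other transglutaminases 0 rose and 2, Tgm4 (at least 6.81-fold lower at E16.5, where no array was above background) and F13a1 (−0.76 ± 0.18), fell by limma. Of 7 epidermal keratins 6 rose. Periderm and simple epithelium genes summed to 4218 to 6075 at E16.5, against 25593 and 18992 at E14.5, with 4 of 8 falling and 2, Krt13 and Krt17, rising. Skeletal muscle genes summed to 53308 to 59732 at E16.5, against 5935 and 11129 at E14.5 (6 of 7 rose), and fibroblast genes to 117670 to 124220 at E16.5, against 78656 and 77004 at E14.5 (5 of 8 rose and 2 fell). Endothelial genes summed to 4511 to 5315 at E16.5, against 2211 and 2028 at E14.5 (4 of 5 rose and 1 fell), and red blood cell genes to 4864 to 9198 at E16.5, against 17974 and 13506 at E14.5 (1 of 5 rose and 3 fell). Macrophage and dendritic cell genes summed to 4877 to 5359 at E16.5, against 13618 and 10143 at E14.5 (3 of 6 rose and 1 fell), and adipocyte genes to 7292 to 9407 at E16.5, against 3384 and 2838 at E14.5 (2 of 5 rose). In the macrophage sum C1qb averaged 288.0 at E16.5, against 6864 at E14.5, whereas C1qa, Adgre1 and Cx3cr1 rose. Melanocyte genes summed to 3299 to 4664 at E16.5, against 3660 and 5331 at E14.5 (3 of 6 rose and 1 fell), and inner root sheath and medulla genes to 1572 to 1924 at E16.5, against 1948 and 1892 at E14.5 (1 of 9 rose and 1 fell). Of these 9 sheath genes, 7 were at or below background on both E14.5 arrays, where Tchh averaged 1064 and Gata3 774.6. Hair shaft genes summed to 447.3 to 518.5 at E16.5, against 401.4 and 349.0 at E14.5 (2 of 9 rose and 1 fell). Their part in the members' changes was not tested.

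At E18.5 against E14.5, 15 of 17 probesets were called, 14 rising and 1 falling, against 59.8% of all tested probesets called, 42.9% rising and 16.9% falling. The later stage was higher on every array for 15 probesets and lower for 1, against 49.6% and 20% of all. The median change was 2.25, against 0.59 over all. With median centring 11 rose and 2 fell, against 19.3% and 39.3% of all, and with each array centred on Krt5 and Krt14 7 rose and 4 fell, against 8.93% and 59.5% of all. Taking 1 probeset a gene, 10 of 10 rose, against 61.8% of all genes called, 41.9% rising and 19.9% falling. Lor again entered by 1448745_s_at, and its other probesets were not called as higher. Flg was at least 352-fold higher at E18.5 (log2 8.75 ± 0.46 SE, limma adjusted p = 1.25e-07, n = 3 and 2), Tgm5 at least 13.3-fold and Casp14 1443787_x_at at least 9.80-fold higher. Rptn 1420431_at was at least 2.95-fold higher, with 2 of 3 E18.5 arrays above background, and its call was lost when centred on Krt5 and Krt14 (0.45, limma adjusted p = 0.41). Rptn 1433211_at was called as higher with 1 of 3 E18.5 arrays above background, so no fold is given, and the call was lost with median centring (limma adjusted p = 0.822), without E14.5 replicate 1 (limma adjusted p = 0.141) and without E18.5 replicate 1 (limma adjusted p = 0.0546). Rptn 1433210_at had 1.01 ± 0.41 (limma adjusted p = 0.0536), and it was called without E14.5 replicate 2 (limma adjusted p = 0.0117). Ivl 1439878_at (log2 4.56 ± 0.22), Tgm1 (3.24 ± 0.22) and Evpl (1.83 ± 0.16) remained higher at E18.5 than at E14.5 despite their falls from E16.5, with Evpl at 0.029 when centred on Krt5 and Krt14. Ppl was higher (1.26 ± 0.16), but its change was 0.19 with median centring and −0.54 when centred on Krt5 and Krt14. Tgm3 1440150_at was higher by only 0.57 ± 0.19 (limma adjusted p = 0.0246), and its change was −0.50 with median centring. That call was lost without E14.5 replicate 1 (limma adjusted p = 0.173) and without E18.5 replicate 2 (limma adjusted p = 0.0618). Lor 1420184_at was lower (−5.87 ± 0.22) and Lor 1448745_s_at higher (1.56 ± 0.16).

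The later change was also tested against the earlier one in the same fit, and both share the E16.5 arrays. Of 17 probesets, 14 were called, 13 with a later change below the earlier one and 1 above it, against 44.9% of all tested probesets called, 29.1% below and 15.8% above. The 13 covered all 10 genes, Flg and Tgm5 included. The difference was −6.66 ± 0.35 for Ivl 1439878_at (SE, limma adjusted p = 1.01e-06), and Tgm1 had −5.28 ± 0.36. The sizes for Flg (−5.90 to −3.62 over the alternatives run) and Tgm5 (−5.32 to −1.02) rest on E14.5 signals at or below background and depend on the pseudocount. The one above was Lor 1420184_at (4.97 ± 0.35). Lor 1448745_s_at had −1.05 ± 0.26 (limma adjusted p = 0.00731), which was −0.21 with median centring (limma adjusted p = 0.571) and 0.26 when centred on Krt5 and Krt14.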

How the data were processed

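Total RNA of 8 samples was extracted with Trizol, and amplified with random hexamers into biotin-labelled sense DNA, per the labels' protocols. That labelling belongs to whole-transcript arrays while the probe table is that of a 3′ array, so how targets were made is uncertain. The deposited values are linear signal intensities for 45101 probesets. Per the submitters' processing notes, Affymetrix Expression Console 1.1 and PLIER 2.0 were used, with no role given. The sources used here name neither a background correction nor a normalization. Of the probesets, 34958 carried 1 gene symbol, 932 several and 9211 none, and 64 controls were left out.

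Values were analysed as log2(signal + 16) with limma 3.58.1 in R 4.3.3 (lmFit with 1 mean per stage, eBayes with a variance trend). The fit was also run on simulated data with independent noise and no array-wide shift, so that run does not bear on scaling. All adjusted p-values for genes are from limma. Where no array of the dim stage rose above background, the fold is the brighter mean over the higher of background and signal, and none is given where the brighter mean was itself below background. For gene lists, the probeset with the highest mean stood for a gene, and the 2 called genes with the largest change per list and comparison were named. Members and lists were chosen with earlier results of these data known. Flg2, Crnn, Tgm7, Stfa1 and S100a11 of the lists had no probeset with 1 symbol. Array number limits the precision. Alternatives were other pseudocounts, normalizations, filters, variance models, probeset sets, a 2-fold threshold and each array left out. Centring on Krt5 and Krt14 was added after the data were seen.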

Additional observations from a re-analysis of the deposited data

How the results depend on the processing

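Between E18.5 and E16.5 the count of 8 called member probesets ranged from 4 to 9 with 1 array left out, and was 4 without E16.5 replicate 3 (1 rose, 3 fell). It was 5 at a threshold of 2-fold, which Evpl, Ppl and Tgm3 1440150_at missed. In the other comparisons it ranged from 14 to 14 (E16.5 against E14.5), 13 to 16 (E18.5 against E14.5) and 14 to 15 (later minus earlier change). Over all tested probesets the calls ranged from 1208 to 4120, 18077 to 20738, 18804 to 20609 and 12588 to 16053. Those of E18.5 against E16.5 numbered 3742, against 1662, 1563 and 1208 without E16.5 replicates 1, 2 and 3, and 2435 with no variance trend. They were 1782 at 2-fold. With 1 probeset a gene, fewer were tested, and calls numbered 2392, 10661, 11285 and 8365.

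Scaling moved the direction of calls. At E18.5 against E16.5, 2191 rose and 1551 fell, against 1442 and 2302 with median centring and 1628 and 1577 with quantile normalization. At E16.5 against E14.5, 13579 rose and 6538 fell, against 7194 and 14535, and 9664 and 9148. At E18.5 against E14.5, 14975 rose and 5908 fell, against 6729 and 13740, and 9521 and 8995. Centring on Krt5 and Krt14, whose mean changed by 0.25, 1.55 and 1.80, turned the sign at E16.5 against E14.5 of Rptn 1433210_at (−1.06), Rptn 1433211_at (−1.53), Lor 1448745_s_at (−0.25) and Tgm3 1440150_at (−0.034). At E18.5 against E14.5 it turned Rptn 1433211_at (−0.62), Lor 1420183_at (−1.59), Lor 1448745_s_at (−0.24), Ppl (−0.54) and Tgm3 1440150_at (−1.23), and for the later minus the earlier change Lor 1448745_s_at (0.26). Median centring turned Lor 1420183_at (−0.86) and Tgm3 1440150_at (−0.50) at E18.5 against E14.5. Only turns where the main fit or the alternative was called are listed. Uncalled changes that turned, such as Rptn 1433210_at at E18.5 against E14.5 (−0.79 when centred on Krt5 and Krt14), were left out. The cause of the turned signs was not tested. At E18.5 against E16.5 none of the alternatives run turned a called member. No paired analysis was possible because the number codes in the sample titles have no stated meaning and no whole code recurs between stages.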

Other observations

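The epidermal differentiation complex between Lor and Rptn on chromosome 3 holds 49 protein-coding genes in RefSeq. Of those outside the 10 member genes, 30 were measured, and they may include genes of the lists above. At E18.5 against E16.5, 6 of the 30 rose, 6 fell and 18 were not called (median log2 change 0.41), against 6.9% and 5.23% of all genes rising and falling (median 0.12). At E16.5 against E14.5, 24 rose and 0 fell by limma (median 2.60), against 37.3% and 21.3% of all genes (median 0.30). At E18.5 against E14.5, 21 rose and 2 fell (median 3.84), against 41.9% and 19.9% of all genes (median 0.52). Families of similar sequence in this interval may share probes, so their separate values are uncertain.

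Genes whose log2 signals followed Flg, Lor, Ivl and Tgm1 most closely were looked for among 13367 genes over the 8 arrays, which fall into 3 stages, so that r is a description of stage profiles. Flg was followed by Crybg2 (r = 0.998), the channel gene Trpv2 (0.997) and Trabd2b (0.997), with r of 0.967, 0.959 and 0.955 over the 6 later arrays. Lor 1448745_s_at was followed by Pde4d (0.996), Myl1 (0.996), a myosin light chain of skeletal muscle, and Gnas (0.995). Myl1 averaged 24184 at E18.5, against 15626 at E16.5. Ivl 1439878_at was followed by Gbf1 (0.998), Cdc42bpb (0.997) and Capn15 (0.997), the last with r = 0.995 over the later arrays. Tgm1 was followed by Igfbp2 (0.998), Desi1 (0.997) and Lypd3 (0.997).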
